A study of Bos taurus with 12 samples.

Results

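Listed CpG sites in genes of cytokine and innate immune signalling were described here across the 2 ages of the study. The authors' list of age-associated CpGs was searched for gene symbols that open with IL, TNF, CXC, CCL, CCR, TLR, NLR, IRF, IFN, NFKB, NFAT, STAT, JAK, TRAF, IRAK, MAP3K or CD, with a digit required after IL, STAT, JAK and CD. TNFSF13 and NFATC1 were left out. This gave 63 sites in 30 genes, out of 14094 listed sites, of which 4414 were annotated to any gene, and out of 838705 tested positions. The 63 sites were selected on the authors' p-value of the comparison between ages, so their age differences are a description and carry no test. Each site in the list differed by about 10 percentage points or more by construction.

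The cells were primary dermal fibroblasts of 6 Holstein heifers, each sampled at 5 months (young cultures) and again at 16 months (old cultures), which gave 6 young and 6 old cultures paired by animal. They were revived from frozen stocks, cultured side by side, used at passage 6 and left untreated. Reduced representation bisulfite sequencing (RRBS) reads CpG-rich fragments after digestion, and the methylation ratio of a position is the share of its reads that kept a cytosine. One culture stood for each animal and age, the animals were all of 1 breed and sex, and time in storage cannot be told apart from age. No transcript was measured in these libraries, so the cell type could not be checked against marker genes.

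Cytokines are secreted signals that act through a receptor on the cell surface. Receptors of the tumour necrosis factor (TNF) family recruit TRAF adaptors and kinases of the MAP3K family and release NF-kB, while the receptors of interleukin 6 and of type I interferon act through JAK kinases and STAT factors. Toll-like receptors sense microbial molecules and feed into the same NF-kB and IRF factors. Dermal fibroblasts carry many of these receptors and answer bacterial products with cytokines of their own. Several other genes found by their symbols, among them CD79A and CD5, are best known from lymphocytes.

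Coverage summed over the tested positions was 25962640 to 28820145 in the 6 young cultures and 19007741 to 31643295 in the 6 old cultures, where a read over several CpGs counts at each. Mean coverage at the 63 sites was 14.7 reads in young and 13.4 in old cultures, higher in the young culture of 4 of 6 animals, a difference of 1.31 ± 3.67 reads (SD of the 6 differences; exact sign-flip permutation test, two-sided, P = 0.4375, where the smallest P is 0.03125). Over all tested positions the means were 32.2 and 28.9 reads (exact sign-flip permutation test, two-sided, P = 0.3125). The sites were thinly read: their median mean coverage was 11.7 reads, and 13 of 63 had at least 10 reads in every culture. At 10 reads, 1 read moves a ratio by 10 percentage points.

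Most sites were more methylated in young cultures. This held for 46 of 63 (73.0%), and 17 were more methylated in old cultures. The young share was 66.3% over all listed sites and 67.6% over those in any gene. Of the 46 sites, 8 were neighbouring CCR10 sites that can share reads. By gene, 16 were represented only by sites more methylated in young cultures and 6 only by the reverse (CD101, CD300LB, CD99L2, IRF4, NLRP5 and TRAF3IP1). The remaining 8 had both kinds (CCL25, TNFRSF10D, TNFRSF19, TNFRSF1A, MAP3K6, NFKB1, CD300A and CD5). Of all protein-coding genes with a listed site, 55.8% had only sites more methylated in young cultures and 28.3% only the reverse. The plot of all sites by gene shows the lean towards young cultures, which the whole list shares, and the width of the animal spread.

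**Figure D1:**
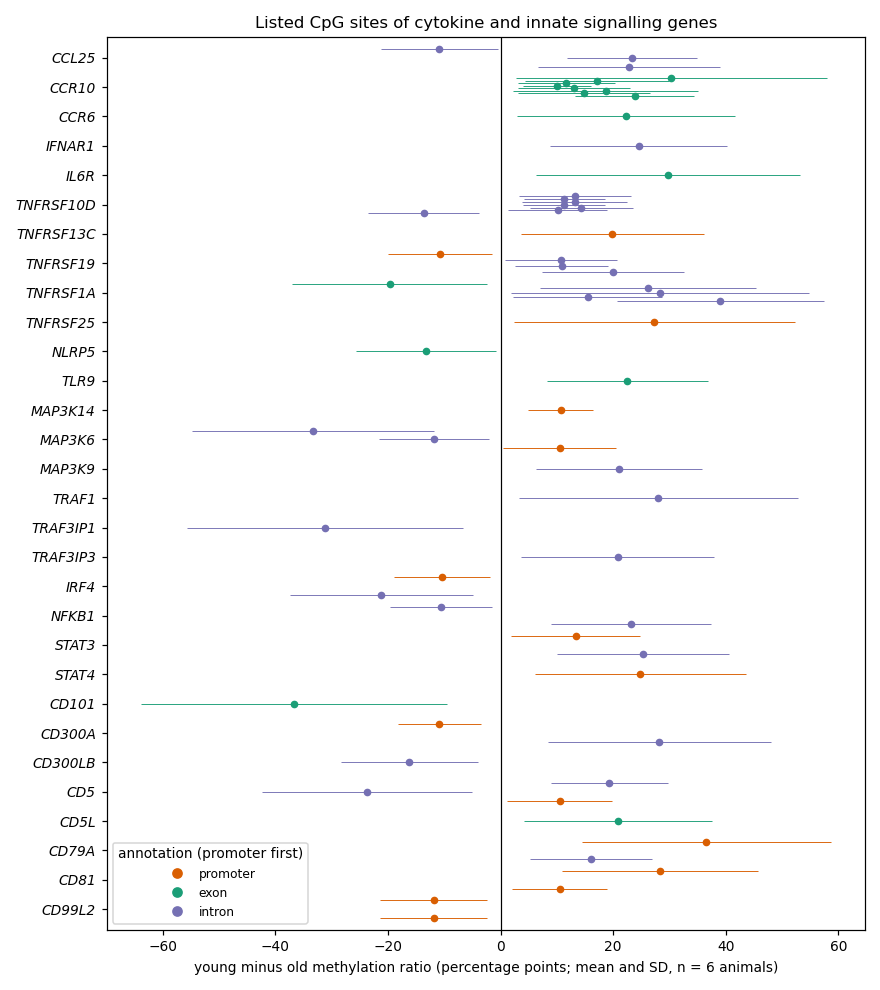
Horizontal axis, young minus old methylation ratio in percentage points; each point is the mean of the 6 paired differences at 1 of 63 listed sites and each bar its SD, with genes as rows in order of role. Colour gives the annotation class, with promoter given first where a site has several; 46 points lie right of 0 and 17 left of it.

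A paired fit of the ratios over all tested positions, with an unadjusted P below 0.05 and a difference of at least 10 points, called 62 of the 63 sites. Across all positions it called 1.68% (14129), made up of 1.12% (9370) with the higher ratio in young cultures and 0.567% (4759) with the higher ratio in old cultures. Since the sites were picked on this contrast, nothing is read from that comparison of shares. The site not called was CCL25 chr7:17998788. After Benjamini-Hochberg adjustment over all 838705 positions, the paired test left 0 sites, against 24094 with an unadjusted P below 0.05, and the smallest adjusted P was 0.470 over all positions and 0.889 among the 63 sites.

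The median difference of the 63 sites was 18.7 points in size, with a range from 10 to 39.0, against 17.8 for all listed sites. Sites more methylated in young cultures had a median of 19.9 points and sites more methylated in old cultures 13.2. All 6 animals moved the same way at 23 sites (36.5%), against 42.8% of all listed sites. The ratios of the 2 ages did not overlap at 1 site, in the CD79A promoter, and they did not overlap at 0.123% of all tested positions. Between animals the spread was wide, with a median SD of 11.9 points in young cultures, 11.2 in old cultures and 12.4 for the paired differences.

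The level over the 12 cultures lay between 20% and 80% at 42 of 63 sites (66.7%), with a median of 45.8%, near the 65% and 44.3% of all listed sites. Of the sites annotated to the genes' own promoters (15 sites in 13 genes), 10 had the higher mean in young and 5 in old cultures, and the median level was 21.3%. Introns held 37 sites (25 young, 12 old) with a median level of 55.6%, and exons held 16 (12 young, 4 old). CpG islands, which are dense CpG stretches, held 19 sites in 10 genes. The share in islands was 30.2%, against 31.9% of listed sites in any gene.

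Among ligands and the receptors of chemokines, interleukins and interferons, 13 of 14 sites were more methylated in young cultures. Of the 14, however, 8 were neighbouring CCR10 sites, and the young share was 67.6% over listed sites in any gene. CCR10, the skin-homing receptor of the chemokines CCL27 and CCL28, had the densest cluster, 8 exonic sites in a CpG island between chr19:43377874 and chr19:43378039 (bosTau8 throughout), a span of 165 bp. Each of the 8 was also annotated to the promoter of the neighbouring gene CNTNAP1. At the site with the largest difference, chr19:43378039, young cultures ranged from 31% over a median of 77% to 100% and old cultures from 20% over 33% to 83%. Their means were 72.2% ± 24.1 and 41.8% ± 25.2 (SD, n = 6), and all 6 young cultures exceeded the old culture of their animal, although the ages overlapped. The mean coverage there was 23.4 reads. The other 7 sites were lowly to moderately methylated and differed by 10 to 23.8 points.

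Averaged over the 8 CCR10 sites, the young cultures ranged from 20.3% over 30% to 43.5% and the old cultures from 8.5% over 13.0% to 21.4%. The difference of that average was positive in 6 of 6 animals, from 10 to 22.1 points (mean 17.4, SD 4.50). The sites are close enough to share reads and are not separate measurements. The 10 other tested positions inside the span averaged 10.7 points, in the same direction. Over the full window of 500 bp to each side, the 42 unlisted positions averaged 3.88 points, with a block near 0% methylation in both ages at the far left of the plot of this locus.

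**Figure D2:**
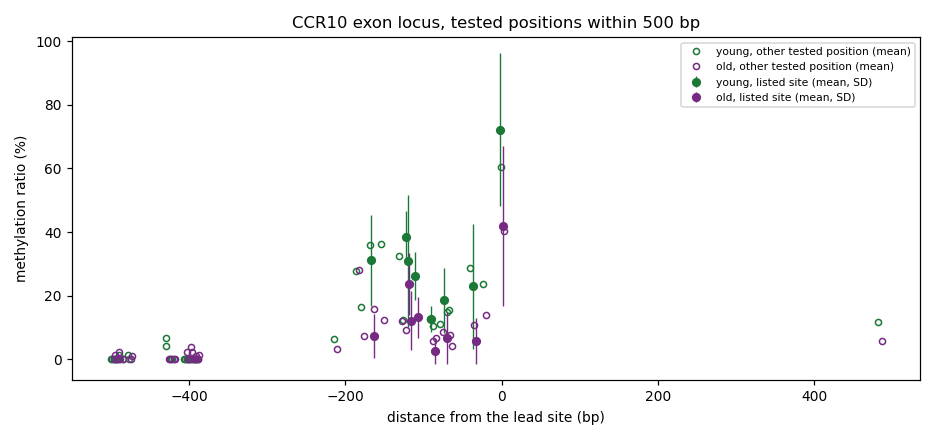
Horizontal axis, distance in bp from the CCR10 site with the largest difference; vertical axis, methylation ratio in percent. Filled points are the means of 6 young (green) or 6 old (purple) cultures at the 8 listed sites with SD bars, open points the means at the 42 other tested positions; young means lie above old means at every listed site.

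A ligand and another receptor of the chemokine system were found. CCL25, the chemokine ligand of thymus and gut, had 3 intronic sites within 203 bp of chromosome 7. At chr7:17998631 the young cultures ranged from 27% over 47% to 70% and the old cultures from 0% over 24.5% to 42%, a difference of 23.3 points. A site 46 bp away differed by 22.8 points, and the third, chr7:17998788, was lower in young cultures (58.7%) than in old ones (69.5%). Over the first and second of these, 5 animals differed by 18.5 to 34.0 points and animal 4 by 1.5. CCR6, the receptor of CCL20, had 1 exonic CpG island site at chr9:103461935, with 67% over 78% to 100% in young and 33% over 55% to 86% in old cultures, a difference of 22.3 points with 5 of 6 animals higher when young.

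The interferon and interleukin receptors had 1 site each. IFNAR1, a chain of the type I interferon receptor, was more methylated in young cultures at an intronic position, chr1:1481741, with 18% over 40.5% to 50% against 0% over 12.5% to 29%. The difference was 24.5 points with the same direction in 6 of 6 animals, at a mean coverage of 8.33 reads. IL6R, the alpha chain of the interleukin 6 receptor, had an exonic site at chr3:16211808 with 44% over 63.5% to 75% in young and 0% over 37.5% to 50% in old cultures. That difference was 29.7 points (SD 23.4), positive in 6 of 6 animals. The partner position on the opposite strand differed by 2.83 points, and with both strands merged the IL6R difference was 13.1 points. All 8 unlisted positions within 500 bp, that partner among them, were also higher in young cultures, by 7.69 points on average. They lay from −39 to 8 bp from the site. Those on the same strand are close enough to share reads, so the positions are not separate measurements.

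The TNF receptor superfamily held 18 sites in 5 genes, and the ratio was higher in young cultures at 15 of them. Of the 15, TNFRSF10D gave 6 and TNFRSF1A 4, and the young share was 67.6% over listed sites in any gene. The largest difference of all 63 sites was at a site annotated to TNFRSF1A, which encodes TNF receptor 1. At the intronic position chr5:104311260 young cultures ranged from 40% over 67% to 80% and old cultures from 0% over 25% to 40%. The means were 62.8% ± 13.5 and 23.8% ± 13.6 (SD, n = 6), a difference of 39.0 points in the same direction in 6 of 6 animals, with the lowest young value equal to the highest old value. The opposite strand of that CpG was not in the list and differed by 30.8 points.

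A further 4 TNFRSF1A sites lay up to 102977 bp away. The span also takes in LTBR, the lymphotoxin beta receptor, and SCNN1A, a sodium channel subunit, and 1 site each was annotated to these genes as well. The assignment of these sites, and of chr5:104311260, to TNFRSF1A is the authors' annotation. It was not checked against gene coordinates and is uncertain over so long a span. At chr5:104353791, in the LTBR promoter, young cultures averaged 47.8% ± 25.2 and old cultures 19.5% ± 8.62, and its opposite strand differed by 23.8 points. The SCNN1A intronic site chr5:104365411 differed by 26.2 points. In contrast, the exonic CpG island site chr5:104414237 was more methylated in old cultures in 6 of 6 animals, with 33% over 48% to 67% in young and 57% over 71% to 76% in old cultures. Between these sites the 34 other tested positions averaged 2.22 points.

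TNFRSF10D, a decoy receptor for the death ligand TRAIL, had 7 intronic sites over 158721 bp of chromosome 8, with mean coverages of 11.0 to 38.5 reads, the highest of the 63 sites. Of these, 6 had higher ratios in young cultures, by 10.2 to 14.3 points. At chr8:71001748 young cultures ranged from 62% over 80% to 83% and old cultures from 48% over 66.5% to 70%, with 6 of 6 animals higher when young. The exception, chr8:70988668, was higher in old cultures of all 6 animals, by 13.7 points (73.0% ± 9.82 against 86.7% ± 6.15). Its opposite strand differed by 3.33 points the other way, 0 of its 7 unlisted neighbours moved with it, and merging the strands left −5.50 points. The 147 other tested positions of the span averaged 1.07 points, and merging also reduced the difference at chr8:71016395 from 13.2 to 3.29 points.

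TNFRSF19, a receptor known as TROY with roles in development, had 4 sites over 56400 bp of chromosome 12. At chr12:34723905, an intronic position, young cultures had 9% over 12.5% to 22% and old cultures 0% over 0% to 12%, and the 10.8 points fell to 4.08 with the strands merged. A site 20 bp away differed by 10.7 points and chr12:34701852 by 20 points. Its promoter site chr12:34758252 was more methylated in old cultures, with means of 16.0% and 26.7%. Young and old cultures overlapped at each of these positions.

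TNFRSF25, the death receptor DR3, and TNFRSF13C, the receptor of the B cell survival factor BAFF, each had 1 promoter site more methylated in young cultures. The TNFRSF25 site chr16:47751544 had 60% over 85.5% to 100% in young and 20% over 62% to 83% in old cultures, a difference of 27.3 points. The TNFRSF13C site chr5:113433878 had 75% over 100% to 100% against 60% over 68.5% to 100%, a difference of 19.8 points at a mean coverage of 7.67 reads. Neighbouring positions had other values: 5 around TNFRSF25 averaged 0.0333 points, and 2 beside TNFRSF13C averaged −13.3 points, the opposite direction.

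**Figure D3:**
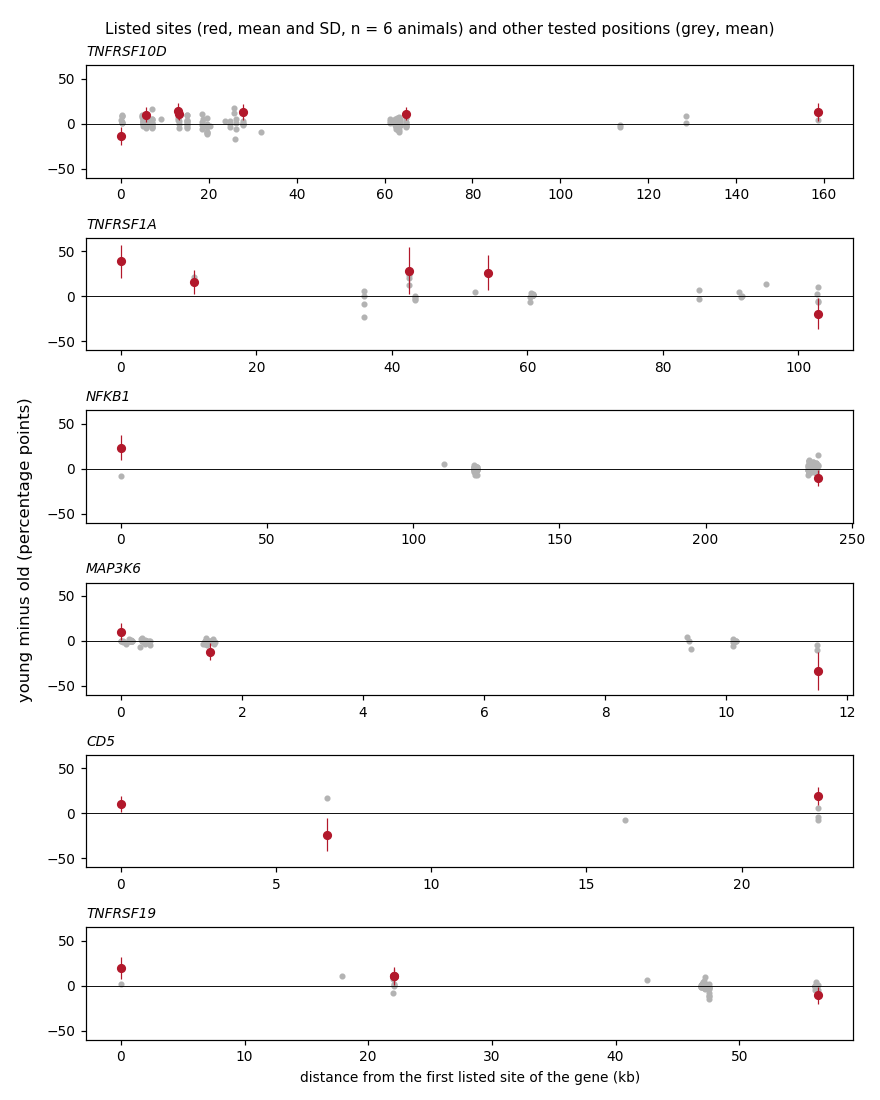
Horizontal axes, distance in kb from the first listed site of each of 6 genes; vertical axes, young minus old methylation ratio in percentage points. Red points are listed sites (mean and SD of 6 paired differences) and grey points the means at other tested positions; each gene has red points on both sides of 0.

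The Toll-like and NOD-like families were represented by 2 exonic sites, 1 in each, that differed in direction. TLR9, which senses unmethylated CpG DNA, had 56% over 71% to 86% in young and 29% over 50% to 62% in old cultures at chr22:49232833, a difference of 22.5 points seen in 6 of 6 animals. NLRP5, a NOD-like family member best known from the oocyte, was fully methylated at chr18:63673518 in all 6 old cultures, over 90 reads that allow up to 3.33% unmethylated reads, and ranged from 67% over 85.5% to 100% in young cultures. The 3 unlisted neighbours of the TLR9 site averaged 0.222 points.

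Adaptors and kinases contributed 8 sites in 6 genes, and the young mean was higher at 5 of them. TRAF1, an adaptor of TNF receptors, had an intronic difference of 28.0 points at chr8:112211630, with 11% over 53.5% to 83% in young and 0% over 18.5% to 50% in old cultures. TRAF3IP3, a TRAF3-binding protein of lymphocytes, differed by 20.8 points at chr16:75433360 in 6 of 6 animals (57% over 76.5% to 80% against 33% over 53% to 67%). TRAF3IP1, a TRAF3-binding protein of the cilium, had the reverse at chr3:118281774, where 6 of 6 animals were higher when old (17% over 26.5% to 67% against 33% over 67% to 100%, a difference of −31.2 points). These 3 positions had no other tested position within 500 bp.

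Among the kinases, MAP3K14 (NIK), which starts the non-canonical NF-kB route, had a lowly methylated promoter site at chr19:45562777. Young cultures ranged from 6% over 21% to 38% and old cultures from 0% over 9.5% to 25%. The difference of 10.7 points had the smallest SD of all 63 sites, 5.72, with 6 of 6 animals higher when young. A difference near 10 points enters the list only with a small SD, so that SD follows in part from the selection. The 8 unlisted positions within 500 bp averaged −2.04 points, with 3 higher in young and 4 higher in old cultures. MAP3K9, a mixed-lineage kinase, differed by 21.0 points at the intronic CpG island site chr10:82772272 (60% over 78% to 90% against 33% over 56% to 71%). MAP3K6, a stress-activated kinase, went both ways. Its intronic sites chr2:126507323 (0% over 6% to 12% in young, 9% over 16.5% to 29% in old cultures) and chr2:126517378 (51.3% against 84.7%, mean coverage 6.5 reads) were more methylated in old cultures. Its promoter site chr2:126505857 was 10.5 points higher in young cultures, and 6.80 points higher without animal 2.

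The transcription factors had 7 sites in 4 genes. STAT3 and STAT4, which carry interleukin signals to the nucleus, were more methylated in young cultures at every listed site. In the STAT3 promoter, chr19:43133367 was unmethylated in all 6 old cultures, over 65 reads that allow a ratio of up to 4.62%, and ranged from 0% over 15.5% to 29% in young cultures, of which 4 had methylated reads. The STAT3 intronic site chr19:43079083 differed by 25.3 points in 6 of 6 animals at a mean coverage of 7.75 reads. The 7 unlisted positions within 500 bp of the promoter site averaged 2.86 points, with 5 higher in young and 1 higher in old cultures. Over the whole stretch between the STAT3 sites, the 43 other tested positions averaged −3.33 points, the opposite direction. The STAT4 promoter site chr2:80044534 had 7% over 41.5% to 71% in young and 0% over 14.5% to 40% in old cultures, a difference of 24.8 points in 6 of 6 animals.

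IRF4, an interferon regulatory factor of lymphocytes, was the transcription factor with sites only in the other direction. Its intronic position chr23:52059364 had 43% over 64.5% to 86% in young and 61% over 87% to 100% in old cultures. At chr23:52063305, a CpG island site of promoter and intron, all 6 young cultures had a ratio of 0% over 115 reads, which allow up to 2.61%, while old cultures ranged from 0% over 12.5% to 20%. NFKB1, the gene of the NF-kB subunit p50, had 2 intronic sites 238576 bp apart in opposite directions. The better covered one, chr6:23796898, was 10.5 points higher in old cultures (70% over 78% to 91% against 77% over 89.5% to 100%), and chr6:23558322 was 23.2 points higher in young cultures (97.7% ± 5.72 against 74.5% ± 16.3). Unlisted positions within 500 bp went against each site on average. The 3 near chr6:23558322 averaged −6.5 points, with 0 in its direction. The 4 near chr6:23796898 averaged 3.75 points, with 1 in its direction. The 144 other tested positions between the 2 sites averaged 0.356 points.

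The genes named for CD surface molecules were mixed, with 8 of 14 sites more methylated in young cultures. CD79A, the signalling chain of the B cell receptor, had the 1 site with separate ages, chr18:51682667 annotated to its promoter and to an intron. Young cultures ranged from 60% over 71.5% to 100% and old cultures from 20% over 41.5% to 45%, with means of 73.8% ± 15 and 37.3% ± 9.48 (SD, n = 6) and a difference of 36.5 points. The opposite strand of this CpG did not share it: it differed by −4.33 points, and merging the strands left 15.9 points. A second CD79A site, chr18:51681139, behaved likewise, with 16.0 points on its own strand, −9.33 on the other and 3.12 when merged.

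CD81, a tetraspanin partner of many receptors, had 2 promoter sites 12 bp apart on chromosome 29 that were more methylated in young cultures. At chr29:49849614 young cultures had 36% over 54% to 83% and old cultures 14% over 27.5% to 50%, a difference of 28.3 points. The 4 unlisted positions within 500 bp were all higher in young cultures, by 10.9 points on average. CD5L, a secreted macrophage protein, differed by 20.8 points at the exonic site chr3:12553614 (25% over 52% to 71% against 14% over 29% to 43%). The T cell molecule CD5 had an intronic site higher in old cultures, chr29:38009720 (0% over 63.5% to 86% against 50% over 81.5% to 100%), an intronic site 19.3 points higher in young cultures (chr29:38025558) and a promoter site 10.5 points higher in young cultures. At chr29:38025558 the opposite strand differed by −3.83 points and merging the strands left 9.85 points.

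CD101, a leukocyte surface protein, had the largest difference towards old cultures. At its exonic site chr3:26336929 old cultures were at 88% over 100% to 100% and young cultures spread from 25% over 61% to 100%, a difference of −36.7 points with 5 animals higher when old and 1 equal. CD300A, an inhibitory receptor of myeloid cells, was 10.8 points higher in old cultures at the promoter and exon site chr19:57621263 (77% over 83% to 100% against 86% over 100% to 100%), a difference that fell to 6.48 points with the strands merged. Its intronic site chr19:57616761 was 28.2 points higher in young cultures. CD300LB, an activating receptor of the same family, was 16.2 points higher in old cultures at chr19:57569110 (36% over 55% to 57% against 30% over 71.5% to 85%). CD99L2, an adhesion molecule encoded on the X chromosome, had 2 CpG island sites of promoter and intron 11 bp apart, and at chrX:33739575 young cultures had 0% over 13.5% to 30% and old cultures 8% over 27.5% to 40%.

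**Figure D4:**
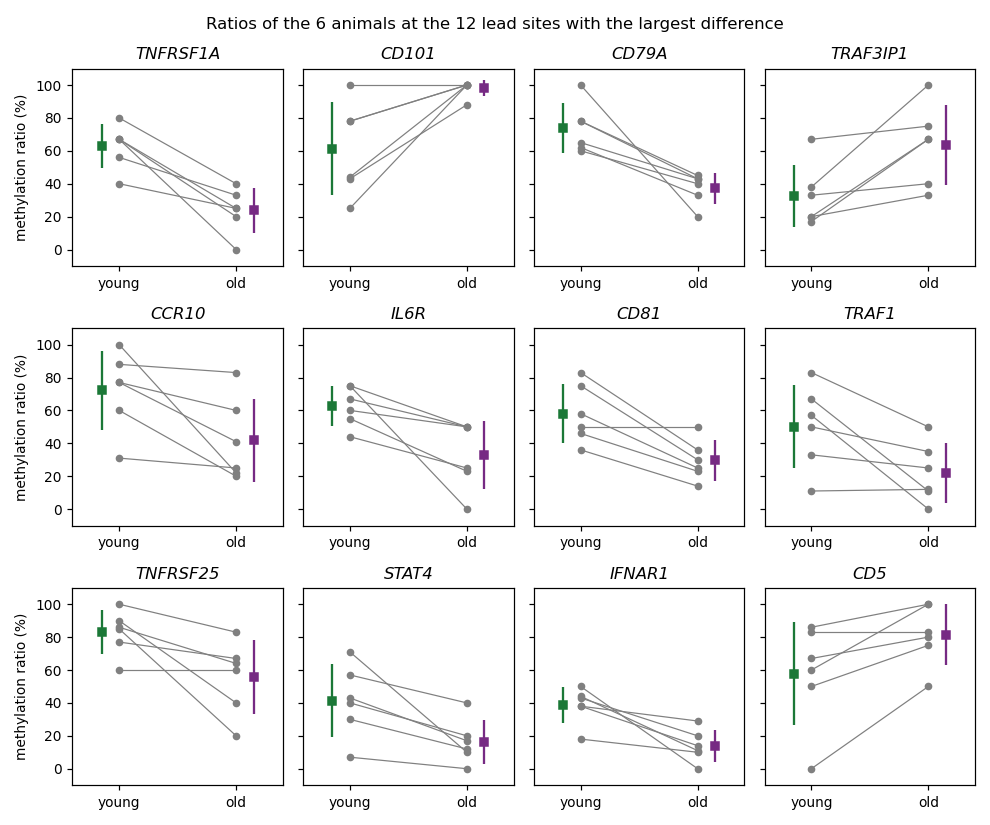
Vertical axes, methylation ratio in percent at 12 sites, 1 per gene, with the largest differences among the sites given in full; grey lines join the young and old culture of each of 6 animals and squares with bars give mean and SD. Only in the CD79A panel do the young values, 60% to 100%, stay clear of the old values, 20% to 45%.

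The sites were next set against the positions around them, which belong to the same comparison and are therefore described only. The opposite strand of the same CpG was tested for 19 of 63 sites and was itself listed for 0 of them. It moved in the direction of the site at 15 of 19, by a mean of 9.26 points. Over all 19, counted in the direction of the site, the mean was 6.21 points, where the sites themselves averaged 19.7 points. Merging the strands could change little at the 44 sites whose opposite strand was not tested. All 63 sites kept their direction when merged. The difference shrank by more than 1.5 times at 11 sites and lay below 10 points at 10 sites. Each of these was among the 19 with a tested opposite strand.

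Unlisted tested positions lay within 500 bp of 54 sites. Their mean moved in the direction of the site at 40 of 54, with a median of 1.47 points, where the sites had a median of 15.2 points. Sites of the same locus, among them the 8 of CCR10, shared most of these positions, so the 54 are not independent. Around sites more methylated in young cultures the median neighbour difference was 1.53 points, and around sites more methylated in old cultures −0.596 points. Neighbouring positions followed their site at CCR10, IL6R and CD81, for example, and went against it at TNFRSF13C, CD5 and NFKB1, among others. Allowing gaps of up to 100 bp, the 63 sites formed 52 loci, of which 5 held several sites (CCL25, CCR10, CD81, CD99L2 and TNFRSF19).

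**Figure D5:**
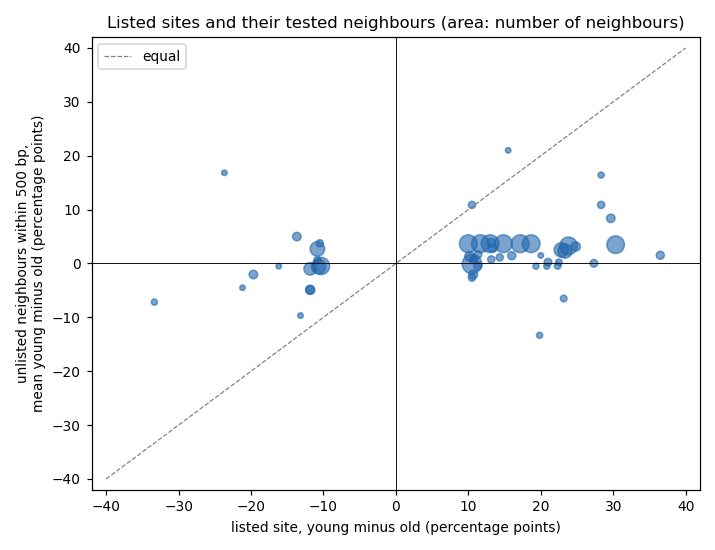
Horizontal axis, young minus old methylation ratio at a listed site; vertical axis, mean of the same difference over its unlisted tested positions within 500 bp, both in percentage points, for 54 sites. Point area grows with the number of those positions, the dashed line marks equality, and most points lie nearer to 0 on the vertical axis than the line, with a lowest value of −13.3 and a highest of 21.0 points.

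The split by direction fixes the sign of the averages per animal, so they are given for their size alone. At the 46 sites with higher young means, the difference per animal averaged between 16.6 and 24.0 points, and at the 17 others between −13.1 and −23.6 points. Individual animals were higher when young at 40 to 43 of the 46 sites and higher when old at 11 to 16 of the 17 sites. At 14 sites every one of the 12 cultures had an even coverage (22.2% of sites), against 16.7% of all listed sites. The even sites were unequally spread, 5 of 46 among those more methylated in young and 9 of 17 among those more methylated in old cultures, and CD101, CD99L2, IRF4, NLRP5 and TRAF3IP1 were among the latter. Overlapping read pairs were counted as 2 reads in the authors' pipeline, and the part of this in the result was not tested.

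Wider pathway lists gave few further listed genes. From a list of the lipopolysaccharide and TLR4 route, the kinase gene IKBKB had 1 listed site, with 82.7% in young and 95.2% in old cultures, and NFKB1 had sites in both directions. Of 18 genes of the non-canonical NF-kB route 3 had one, MAP3K14, TNFRSF13C and LTBR, with higher ratios in young cultures at each site. Of 28 JAK-STAT and interleukin 6 genes 7 had one. Over all 21666 protein-coding symbols of the RefSeq gene table, 9.83% had a listed site, and 55.8% of those had only sites with the higher ratio in young cultures. IL6R, IFNAR1, STAT3, STAT4, the cytokine gene LIF and the kinase gene TYK2 were more methylated in young cultures only, and the receptor gene OSMR in old cultures only, at 6 intronic sites that differed by −23.0 to −37.8 points. How many of the other genes on these lists had a tested position was not analysed here.

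At the edge of the selection, the sites that only just entered were CCL25 chr7:17998788 (58.7% in young, 69.5% in old cultures), MAP3K6 chr2:126505857 (11.7% and 1.17%) and the NLRP5 site (86.8% and 100%). Positions near other members that only just missed it included one 38 bp from the STAT4 site (24.3% and 11.5%), one 9 bp from the TLR9 site (78.7% and 89.3%) and one 38 bp from the IL6R site (32.2% and 16.8%). The position beside TLR9 had the direction opposite to the listed site.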

How the data were processed

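Methylation was measured by RRBS in 12 fibroblast cultures, and the authors' pipeline at Zymo Research trimmed reads with Trim Galore 0.3.7, aligned them with Bismark 0.13.1 to bosTau8 and kept unique alignments, counting overlapping mates as 2 reads. The deposited methylation ratio is a fraction, C/(C + T), rounded by the authors, and the deposited coverage is a count of reads per position and strand, at least 5 in every culture. Further deposited columns hold the authors' mean difference, p-value and direction call per site, which were not used beyond the list they define. The promoter, exon, intron and CpG island classes are the authors' annotation in that list. Columns A and B were read as young and old from the study's supplementary headings. Promoters were defined by the authors around transcription start sites.

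Positions are 1-based. The paired t-test of the methods was run on the ratios of all 838705 positions, with P below 0.05 and a minimum difference of 0.1, and Benjamini-Hochberg adjustment beside it. Alternatives were other coverage and difference minimums, an unpaired test, limma with the animal as a block, a quasi-binomial model, merged strands, ratios from whole reads and each animal left out. Leaving out sites of even coverage was chosen after seeing the data. Coverage was compared by an exact sign-flip test over 64 sign patterns. On simulated data of 20000 sites with 200 changed, the paired test found 98.0% of those changed and also called 1.47% of the rest. Recovery at the sizes of difference given here was not tested. Same-numbered cultures come from 1 heifer. Deviations from the age means correlated within animals with a median of 0.0435 (−0.00240 to 0.0899, 6 pairs) and between animals with −0.0133. Limits at a ratio of 0% or 100% are 3 reads of the total, and with the Wilson interval they cover counting error only, since reads are not independent molecules.

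The genes, lists and tests were chosen with earlier results of these data known. Each gene was named, and the site given in full was its listed site with the largest difference at a mean coverage of at least 10 reads, or otherwise its best covered site. All 30 symbols matched RefSeq's ARS-UCD2.0 gene table, whose coordinates were not used, and which gave the share of all genes with a listed site. Sequences and cytokine or transcript levels were not analysed here. A result of the lipopolysaccharide and TLR4 list is not reported here, and its count is therefore left out. The software was R 4.3.3 with limma 3.58.1, and scipy 1.17.1, numpy 2.4.6, matplotlib 3.10.9 and pandas 2.3.3 under Python 3.11.15.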

Additional observations from a re-analysis of the deposited data

Results flagged for a closer look

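One of 60 groups of 6 cultures, the 2 ages at 30 sites, held a culture that was flagged as apart from the others. At the CD101 exonic site, old culture 3 had a ratio of 88% over 16 reads (Wilson 95% interval 64% to 96.5%), while the other 5 old cultures were at 100%. With those 5 at the ceiling, any lower value would be flagged. Coverage was even in every culture at this site, and the part of read pairs counted as 2 reads was not tested. Chance flags about 1 in 20 such groups.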

How the results depend on the processing

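The number of sites called depended on the coverage and difference minimums and on the test. Of the 14129 calls over all positions, 2901 were left with at least 10 reads in every culture, 376 with at least 20 reads, 3275 with a minimum difference of 25 points and 0 after adjustment, and without a minimum difference there were 24094. Of the 62 sites called here (46 more methylated in young, 16 in old cultures), 13 were left with at least 10 reads (8 and 5), 1 with at least 20 (1 and 0), 14 at 25 points (11 and 3), 36 in the quasi-binomial model (27 and 9) and 0 after adjustment (0 and 0). Without the pairing by animal (no replicate block) 40 were called (30 and 10). Leaving out each of the 6 animals in turn left 33 to 38 (24 to 31 and 5 to 13). Genes called in both directions numbered 7, and 2, 0, 3, 0, 4, 3 and 0 with at least 10 reads, at least 20, a mean of 10, 25 points, no pairing, the quasi-binomial model and adjustment, or 1 to 5 without 1 animal. The median difference of 18.7 points was 13.2 with at least 10 reads in every culture, 14.8 with a mean of 10, 15.5 with merged strands and 15.8 to 19.2 without 1 animal. Fewer qualifying sites account for the lower counts under the minimums, and the cause was not tested for the other tests. The limma fit called 63 sites, merged strands 52 and sites without even coverage 48. All 30 differences given in full kept their direction with merged strands, ratios from whole reads and reads pooled within an age. Since the sites were selected on this contrast, these settings had little room to reverse a direction. Ratios from whole reads only undo rounding, and merging acts only where the opposite strand was tested. Without 1 animal the direction was fixed by the selection. Of the 30, 22 met a mean of 10 reads and 4 met 10 reads in every culture. The coverage difference was 0.416 to 2.53 reads without 1 animal, where the smallest exact P is 0.0625. Low depth per site limits every ratio, and no age difference passed adjustment.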
